A study of Rattus norvegicus with 17 samples.

Results

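The genes described here were the Janus kinases Jak3 (ENSRNOG00000018669) and Jak1 (ENSRNOG00000011157) and the transcription factor Stat3 (ENSRNOG00000019742). They were taken by identifier, as 3 of the 26402 genes in the table, and all 3 were among the 13853 genes that passed a filter on low values. Jak3 was chosen by its fold change between ENZ and vehicle in these same rats, so that difference is described here without a test. Jak1 and Stat3 were added as its partners, with earlier results of these data known.

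RNA from the left CA1/CA2 region of the hippocampus was sequenced, with 1 library per rat. All rats were virgin males of the Fischer-344 strain (Fisher-344 in the sample labels), aged 12 months, trained in the Morris maze while they were injected under the skin once a day for 3 days, and killed right after the last trial. In the ENZ group (7 rats), Enzastaurin, an inhibitor of protein kinase C-beta, was given at 25 mg/kg in polyethylene glycol, and in the vehicle group (10 rats) polyethylene glycol was given alone. The tissue was ventral CA1/CA2 without the dentate gyrus or the alveus, and the labels do not say in which test squad a rat was. Because it was a homogenate, fewer cells that express a gene and less RNA per cell cannot be told apart.

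Janus kinases sit on the inner side of cytokine receptors. When a cytokine brings the receptor chains together, the kinases phosphorylate each other and the receptor, and STAT proteins dock there, are phosphorylated and move to the nucleus to switch on genes. Jak1 is used by many receptors, including those of the interferons and of the interleukin-6 family, and is made in most tissues. Jak3 pairs with the common gamma chain, shared by the receptors for interleukin-2 and related cytokines, works together with Jak1 there, and is best known from blood and lymphoid cells. Stat3 is the main STAT of the interleukin-6 family and in brain is known for its part in the reactive state of astrocytes.

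The deposited values are normalized read counts, and whole reads could be recovered from them. Rat G1_80 of the vehicle group held 33422 reads on genes, and the other 16 rats held 2716777 to 20731523. There each read stood for 103.4 normalized counts. Jak3 and Stat3 had 0 reads there, which allows up to 310.1 normalized counts for each (3 reads, counting error only), and the exact Poisson 95% upper end was 381.3. For Jak3 both bounds lay far above every other rat. For Stat3 the mean of the other vehicle rats, 322.3, lay between the bounds, so at this depth a lower level was not shown. Jak1 had 2 reads there where the mean of the other vehicle rats would give 10.7, and its exact Poisson 95% interval, 25.0 to 746.7 normalized counts, ended below every other rat. Results are therefore given for the 16 other rats, followed by those with rat G1_80.

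Jak3 was chosen for its difference between the groups, so that it stands apart from Jak1 and Stat3 was fixed in advance. Its normalized read count was lowest in vehicle rat G1_143 at 45.8, with a vehicle median of 56.5 and a maximum of 68.0 in rat G1_44. In the ENZ group it was lowest in rat G2_152 at 56.1, with a median of 67.4, and the highest values were 71.6 in rat G2_161, 83.32 in rat G2_71 and 119.4 in rat G2_62. The groups overlapped: 3 of the 7 ENZ rats lay above every vehicle rat, the other 4 lay inside the vehicle range, and 4 of the 9 vehicle rats lay below every ENZ rat. Vehicle rats had a mean of 55.9 ± 7.06 (SD, n = 9) and ENZ rats one of 75.04 ± 21.3 (SD, n = 7). The log2 fold change of ENZ over vehicle was 0.39 with a standard error of 0.13 by limma, on the scale of log2(normalized count + 1), where the added 1 slightly understates the change.

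**Figure D1:**
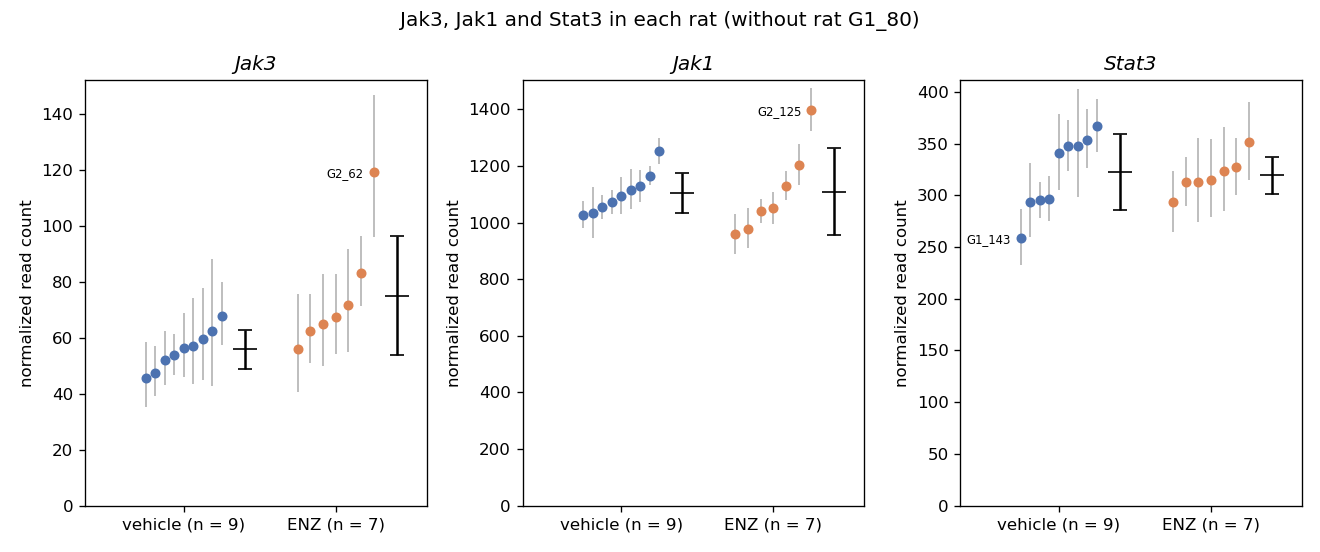
Normalized read count (y axis, from 0) of Jak3, Jak1 and Stat3 in 9 vehicle and 7 ENZ rats, sorted within each group. Grey bars are exact Poisson 95% intervals of the reads (counting error only), black marks the mean ± SD of the group; Jak3 is highest in rat G2_62 at 119.4, Jak1 in rat G2_125 at 1399, and Stat3 is lowest in rat G1_143 at 258.7.

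A single rat carried much of the spread of Jak3 in the ENZ group. Rat G2_62 had 90 Jak3 reads, and its Poisson interval of 96.0 to 146.8 normalized counts lay above the value of each of the other 15 rats. It just overlapped the Poisson interval of rat G2_71, 71.6 to 96.4. Without rat G2_62 the ENZ mean was 67.6 ± 9.27 (SD, n = 6) and the log2 fold change was 0.27 (standard error 0.10). Rat G2_62 was the highest of the 16 rats in 10.5% of all genes tested, and in 0.549% of them it stood above the next rat by at least the 1.43-fold seen for Jak3. It was also the ENZ rat farthest from the median profile over all genes tested, at 0.40 on the log2 scale, and the ENZ rat with the fewest reads, 3880391. In the vehicle group the rat with the highest Jak3, G1_44, was likewise the farthest from the median profile, at 0.48. Over the 16 rats, with group means removed, Jak3 and this distance had r = 0.50 and Spearman rho = 0.42 (permutation p = 0.0321 for r, 0.0950 after Benjamini-Hochberg adjustment over the 3 genes). The part of these profile differences in the Jak3 values was not tested.

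Mean counts published for 5 genes, Jak3 among them, were matched by 1 set of 13 rats, which leaves out vehicle rats G1_80, G1_44, G1_134 and G1_8. Over those 13 rats the log2 fold change of Jak3 was 0.46 (standard error 0.15). In the other 3 vehicle rats outside that set Jak3 was at 62.6 (G1_134), 68.0 (G1_44) and 53.8 (G1_8) normalized counts. Of these 3 rats, 2 lay above the highest of the 6 vehicle rats inside the set, which was at 59.6. The means of the 2 sets of vehicle rats were 61.5 ± 7.17 (SD, n = 3) and 53.2 ± 5.61 (SD, n = 6). No ENZ rat lay outside the set. The study lists the fold change of Jak3 with the opposite sign, and it describes groups of equal size after 2 outliers were removed. This set of 13 rats matches neither. The direction given here follows the treatment labels, and the reason for the mismatch was not tested.

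Jak1, the kinase that works beside Jak3 on common gamma chain receptors, was at nearly the same level in both groups. Vehicle rats ran from 1028 to 1252 normalized counts around a median of 1095. ENZ rats ran more widely, from 959.3 to 1399, and their median was 1051. Of the 7 ENZ rats, 4 lay inside the vehicle range, 2 (G2_62 and G2_152) lay below it and 1 (G2_125) above it. The vehicle mean was 1105 ± 71.6 (SD, n = 9) and the ENZ mean 1109 ± 153.3 (SD, n = 7). The log2 fold change was -0.0033 (standard error 0.069), with a 95% interval of -0.15 to 0.14, or 0.902-fold to 1.10-fold (limma adjusted p = 0.9998; two-sided exact permutation p = 0.966 over 11440 splits, 0.966 adjusted over Jak1 and Stat3). The sign of so small a value changed with the method, to 0.0032 by edgeR and 0.0033 by DESeq2.

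Stat3, the main STAT of the interleukin-6 family, also had close means. Vehicle rats ran from 258.7 to 366.8 normalized counts around a median of 340.5. ENZ rats ran from 293.2 to 351.2, and their median was 315.0. All 7 ENZ rats lay inside the vehicle range. The vehicle mean was 322.3 ± 36.9 (SD, n = 9) and the ENZ mean 319.4 ± 17.7 (SD, n = 7). The log2 fold change was -0.0063 (standard error 0.069), with a 95% interval of -0.15 to 0.14, or 0.901-fold to 1.10-fold (limma adjusted p = 0.9998; two-sided exact permutation p = 0.929 over 11440 splits, 0.966 adjusted over Jak1 and Stat3). It was 0.026 over the 13 rats.

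As background, limma placed 0 of 13853 genes (0%) under an adjusted p-value of 0.05 over the 16 rats. Without adjustment it placed 324 genes (2.34%) under 0.05, 1.1% of all genes being higher and 1.24% lower in ENZ. Over the 13 rats the unadjusted share was 1.88%, with 0.879% higher and 1% lower in ENZ. Over the 16 rats the counts by the adjusted and the unadjusted p-value were 0 and 315 for edgeR and 0 and 309 for DESeq2. The groups failed to overlap for 1 gene (0.00722%), which was none of the 3 members. All genes tested had a median log2 fold change of -0.0043.

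**Figure D2:**
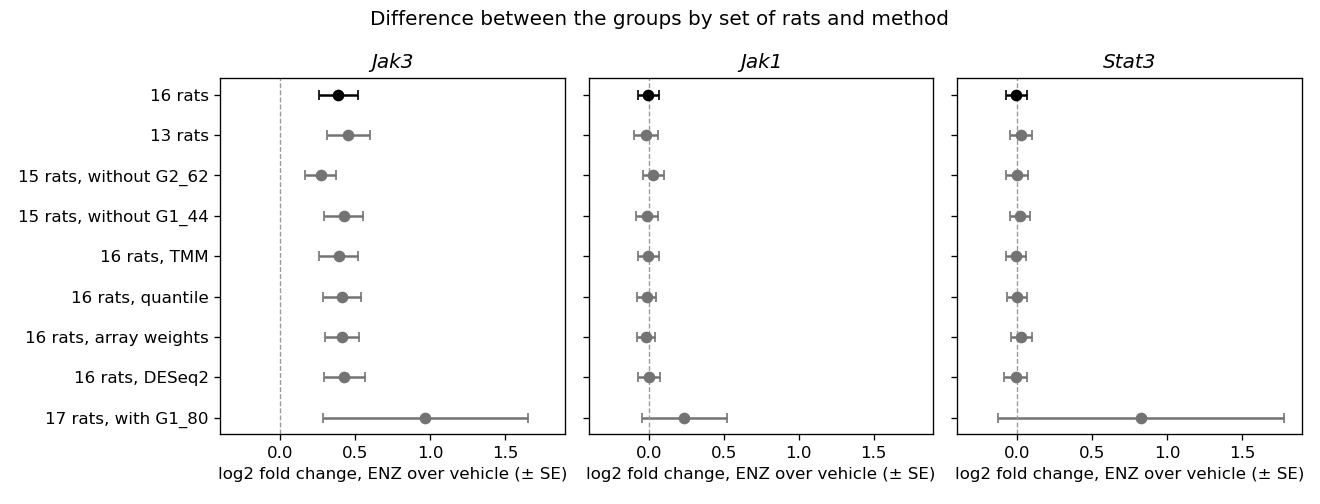
Log2 fold change of ENZ over vehicle (x axis) ± standard error for Jak3, Jak1 and Stat3, by set of rats and method (rows). Jak3 stays above 0 in every row, from 0.27 without rat G2_62 to 0.97 with rat G1_80, while Jak1 and Stat3 stay near 0 in every row except the one with rat G1_80.

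Adding rat G1_80 raised the fold changes of all 3 genes. The log2 fold change over 17 rats was 0.97 for Jak3 (standard error 0.69), 0.24 for Jak1 (0.28) and 0.83 for Stat3 (0.95). The adjusted p-value by limma was 0.786 for both Jak1 and Stat3. These shifts come from values at 0 or 2 reads in a library where 1 read is 103.4 normalized counts, and over all genes tested the median rose to 0.16 with that rat. Over the 17 rats limma placed 38 of 13844 genes (0.274%) under an unadjusted p-value of 0.05, with 0.166% higher and 0.108% lower in ENZ.

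The spread between rats was set against that from counting reads. In vehicle rats Jak3 varied by 12.6% of its mean (1 SD, the coefficient of variation), where read counting alone would give 11.8%. In ENZ rats this was 28.4%, where counting would give 11.2%, and without rat G2_62 it was 13.7%, where counting would give 11.4%. Jak1 varied by 6.48% in vehicle and 13.8% in ENZ, and counting would give 2.65% and 2.92%. Stat3 varied by 11.5% in vehicle and 5.55% in ENZ, and counting would give 4.898% and 5.44%. The vehicle rats thus held little variation of Jak3 beyond counting, and the ENZ rats little of Stat3. For Jak1 in both groups, and Stat3 in vehicle, most of the variation lay beyond counting. The median coefficient of variation over all genes tested was 12.9% in vehicle and 14.2% in ENZ.

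Reads were also compared within each library, since a ratio of genes in the same rat needs no size factor. Jak3 had 5.10 ± 0.870 reads per 100 Jak1 reads in vehicle (SD, n = 9; 3.79 to 6.45) and 6.96 ± 2.63 in ENZ (SD, n = 7; 4.64 to 12.4). The highest values were 12.4 in rat G2_62 and 8.004 in rat G2_71, both above every vehicle rat. This ratio draws on the values that chose Jak3 and is no separate support for its difference. Stat3 had 29.4 ± 4.83 reads per 100 Jak1 reads in vehicle (SD, n = 9; 22.9 to 34.8) and 29.1 ± 3.03 in ENZ (SD, n = 7; 25.1 to 33.1). The log2 ratio of Stat3 to Jak1 differed by -0.0030 between ENZ and vehicle (two-sided exact permutation p = 0.979). These ratios compare rats and say nothing on which gene is expressed more, since reads were not divided by gene length.

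**Figure D3:**
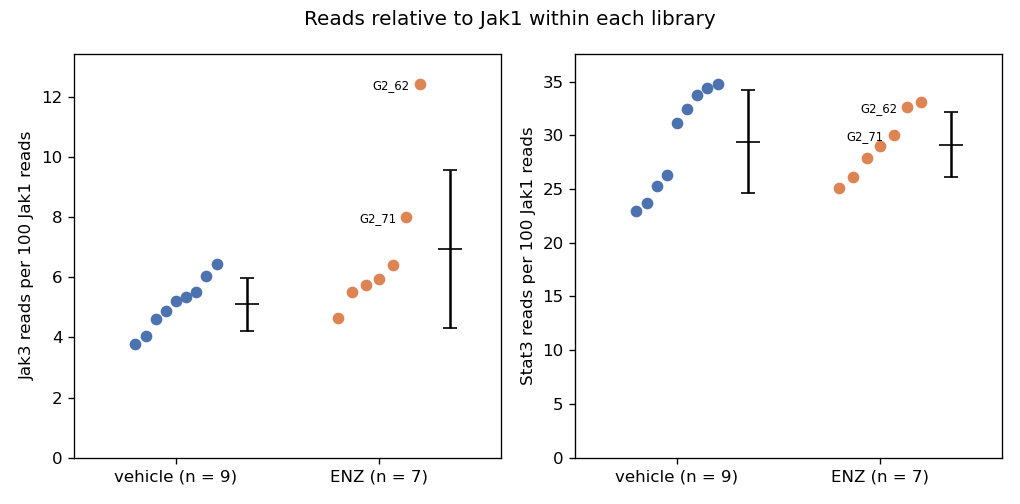
Reads of Jak3 (left) and Stat3 (right) per 100 reads of Jak1 in the same library (y axis, from 0), 9 vehicle and 7 ENZ rats, with the mean ± SD in black. For Jak3, rats G2_62 (12.4) and G2_71 (8.004) lie above every vehicle rat, and for Stat3 the ENZ rats, 25.1 to 33.1, lie inside the vehicle range of 22.9 to 34.8.

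Whether Jak1 and Stat3 followed Jak3 from rat to rat was asked with the group means removed, so that the difference that chose Jak3 played no part. Over the 16 rats neither did so past the threshold. Jak1 tended the other way, with r = -0.44 and Spearman rho = -0.43 (permutation p = 0.182 and 0.127, and 0.401 and 0.381 after Benjamini-Hochberg adjustment over 3 pairs). The approximate 95% interval of that r was -0.78 to 0.089. Stat3 had r = 0.24 with Jak3 (interval -0.31 to 0.67) and rho = 0.25 (permutation p = 0.268 and 0.336, adjusted 0.401 and 0.442). Stat3 and Jak1 had r = -0.10 (interval -0.58 to 0.43) and rho = -0.19 (permutation p = 0.639 and 0.442, adjusted 0.639 and 0.442). Without the 2 rats farthest in Jak3, G2_62 and G2_152, r was -0.53 for Jak1 and 0.49 for Stat3 (permutation p = 0.0529 and 0.0954, adjusted 0.0954 for both). Without the 2 rats farthest in Jak1, G2_125 and G1_53, r of Stat3 and Jak1 was -0.39 (permutation p = 0.0679, adjusted 0.0954). Without centring, r was -0.36 for Jak1 and 0.18 for Stat3 with Jak3. In rat G1_80 Jak3 and Stat3 were at 0 and Jak1 was far below every other rat. With that rat in the set, the 3 values of r rose to between 0.94 and 0.98.

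Against other genes, neither partner stood out. Of the 13852 other genes tested, 18.4% had an r with Jak3 at least as far from 0 as that of Jak1, and 50.2% as far as that of Stat3. The middle of that distribution ran from -0.23 to 0.25 (quartiles), with a median of 0.0090. Genes are not independent replicates, and these shares describe the table only.

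**Figure D4:**
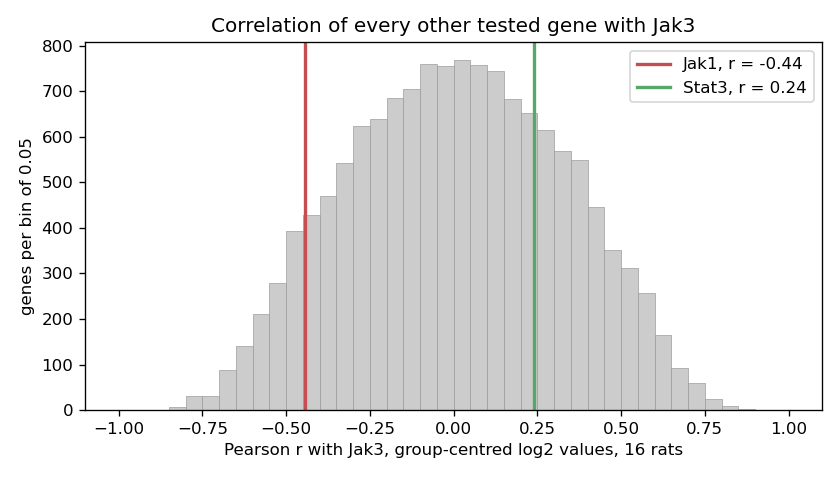
Histogram of Pearson's r with Jak3 (x axis) for the 13852 other genes tested (y axis, genes per bin), from group-centred log2 values of 16 rats. Jak1 at -0.44 lies toward the left side and Stat3 at 0.24 inside the bulk of the distribution.

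Each group was then taken alone. In the 9 vehicle rats Stat3 rose with Jak3 (r = 0.72, exact permutation p = 0.0315, adjusted 0.0482 over 3 pairs), though by rank the relation did not pass (rho = 0.58, exact permutation p = 0.108, adjusted 0.108). Without the 2 rats farthest in Jak3 this r was 0.36 (exact permutation p = 0.427). Leaving them out also narrows the range of Jak3 and keeps only 7 rats. Stat3 and Jak1 ran in opposite directions in vehicle (r = -0.70 and rho = -0.80, exact permutation p = 0.0322 and 0.0138, adjusted 0.0482 and 0.0415). That r was -0.79 without the 2 rats farthest in Jak1 (exact permutation p = 0.0359, adjusted 0.0881). Jak1 and Jak3 had r = -0.65 and rho = -0.60 (exact permutation p = 0.0562 and 0.0968, adjusted 0.0562 and 0.108). The adjustment covers the 3 pairs only, not the several sets of rats and measures tried. In vehicle, 3.95% of all other genes tested had an r with Stat3 at least as far from 0 as Jak1 had. For Jak3 that share was 3.24%. For r of Stat3 set against all other genes, the share was 7.81% with Jak1 and 3.58% with Jak3. Jak3 in these rats varied by 12.6% of its mean, where read counting alone would give 11.8%. Little of its spread was thus left for another gene to follow, and its vehicle correlations are given with that limit.

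In the 7 ENZ rats no pair passed. Stat3 there varied by 5.55% of its mean, where read counting alone would give 5.44%, so it held little for another gene to follow. Stat3 with Jak3 had r = -0.29 and rho = -0.61, Stat3 with Jak1 had r = 0.66 and rho = 0.50, and Jak1 with Jak3 had r = -0.38 and rho = -0.29 (exact permutation p for r = 0.486, 0.118 and 0.395, lowest adjusted value 0.354). Leaving out the 2 ENZ rats farthest in Jak3 (in Jak1 for Stat3 with Jak1) kept 5 rats, fewer than the 6 asked for below. There r was -0.30 for Stat3 with Jak3, 0.098 for Stat3 with Jak1 and 0.50 for Jak1 with Jak3 (lowest exact permutation p = 0.383). These values are given without a reading. Stat3 in vehicle fell into 4 rats at 258.7 to 296.4 and 5 rats at 340.5 to 366.8, with none between, and each set holds fewer than 6 rats. No r was computed within them, so whether the vehicle correlations with Stat3 hold there was not tested.

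The difference between the groups was tested itself, by permutation of the group labels over 11440 splits, a test added after the correlations were seen. Values were first centred on the means of the true groups, so its p-values are approximate. The groups also differed in spread (SD in vehicle and ENZ 71.6 and 153.3 for Jak1, 36.9 and 17.7 for Stat3). The test therefore does not measure a difference in r alone. For Stat3 and Jak1, r was -0.70 in vehicle and 0.66 in ENZ, and the difference passed (p = 0.00157 by that permutation test, 0.00472 adjusted over 3 pairs). It rested on ENZ rat G2_125, the highest in both Jak1 and Stat3 in its group. Without rat G2_125 the ENZ r was 0.097 and the adjusted permutation p was 0.0839. For Stat3 and Jak3, r was 0.72 and -0.29 (permutation p = 0.0314, adjusted 0.0471), and that call was lost in 11 of the 16 fits that each left out 1 rat. It held only without G1_18, G1_89, G1_98, G1_107 or G2_26, and the adjusted permutation p ran from 0.0183 to 0.121. For Jak1 and Jak3 the difference did not pass (permutation p = 0.637, adjusted 0.637). Of all other genes tested, 3.43% differed between the groups in r with Stat3 by as much as Jak1 did, and 11.8% by as much as Jak3 did.

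**Figure D5:**
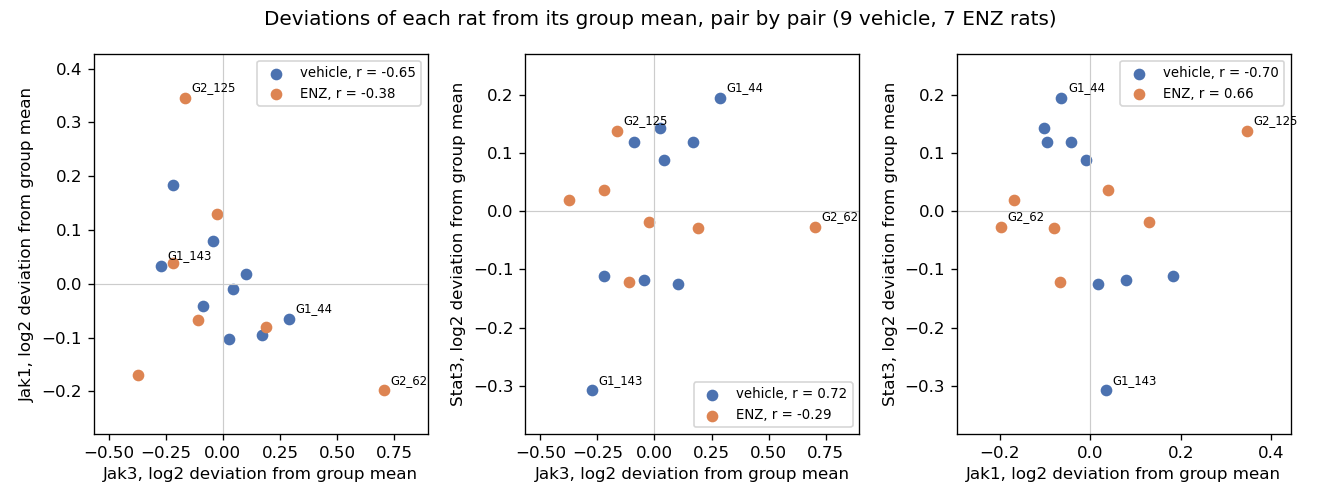
Log2 deviation of each rat from its group mean for the 3 pairs of genes (both axes), 9 vehicle and 7 ENZ rats, with r per group in the legend. In the right panel the vehicle rats run downward (r = -0.70) while rat G2_125 lies alone at the upper right of the ENZ rats (r = 0.66).

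Depth was set beside each member. With group means removed, log10 of total reads had r = -0.22 with Jak3, 0.20 with Jak1 and -0.14 with Stat3 (rho = -0.24, 0.31 and -0.100; permutation p for r = 0.377, 0.398 and 0.658, adjusted 0.598, 0.598 and 0.658). The distance from the median profile had r = -0.17 with Jak1 and 0.52 with Stat3 (rho = -0.36 and 0.44; permutation p for r = 0.504 and 0.0633, adjusted 0.504 and 0.0950).

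Jak3 is best known from blood cells, and the only blood gene that could be named was Hba2, an alpha-globin gene. Its near-identical copies make its counts uncertain. With group means removed, Jak3 and Hba2 rose together over the 16 rats (r = 0.51, rho = 0.64, permutation p = 0.00549 and 0.0106, adjusted 0.0220 and 0.0423 over the 4 other genes the study names). The r was 0.60 in vehicle, 0.82 in ENZ, and 0.60 without the 2 rats farthest in Jak3. Of all other genes tested, 11.1% had an r with Jak3 at least as far from 0. The 4 genes came from the study's list of lowest unadjusted p-values and were added with their values seen. Their p-values here are therefore descriptive only. The other 3 genes were Chpf2 (r = 0.53, rho = 0.46, adjusted permutation p = 0.0359 and 0.177), Serping1 (r = 0.18, rho = -0.044, adjusted permutation p = 0.562 and 0.876) and Mavs (r = -0.16, rho = -0.12, adjusted permutation p = 0.562 and 0.876). With group means removed, these correlations say nothing on the difference of Jak3 between the groups. The study lists Jak3 and Hba2 with fold changes of opposite sign, but its sign for Jak3 is the reverse of that found here. No fold change of Hba2 is given here. The part of blood in the Jak3 values was not tested.

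The genes whose pattern was most like that of Jak3 were looked for among 11671 genes with a median of at least 20 normalized counts, over the 16 rats with group means removed. The highest r was 0.86, for ENSRNOG00000001700 and ENSRNOG00000018325, and the lowest were -0.84 for ENSRNOG00000014172 and -0.83 for ENSRNOG00000014928. Each of these 4 genes had its most extreme ENZ value in rat G2_62, with 351.6, 261.4, 7.96 and 595.8 normalized counts in that order. Without rat G2_62 the values of r were 0.80, 0.64, -0.58 and -0.61. The table gives no names for them.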

How the data were processed

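RNA from the left CA1/CA2 of 17 rats (10 vehicle, 7 ENZ) was sequenced. The authors trimmed reads with AlienTrimmer (0.3.2), aligned them to rn5 with STAR (2.4.0a) and counted them per gene with featureCounts (1.4.4). The deposited values are a signal, counts divided by 1 size factor per rat. Annotation release and strand setting are not given in the sources used here, so reads of overlapping or antisense genes cannot be told apart. All values above 0 were whole reads within 0.1 read in every rat. The members, lists and tests were chosen with earlier results of these data known.

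The groups, from the treatment labels, were compared without rat G1_80 on log2(normalized count + 1), with a mean-variance trend in limma (3.58.1, R 4.3.3). Genes needed a median of 5 or more, and p-values were adjusted after Benjamini-Hochberg. Two-sided exact permutation tests served for Jak1 and Stat3 alone. Correlations used Pearson's r after subtracting group means, with 100000 permutations within groups, or all orders within 1 group; intervals of r are Fisher approximations. Python (3.11.15), numpy (2.4.6) and scipy (1.17.1) were used. Counts were simulated with these 16 rats' means and library sizes for 13853 genes, 200 of them changed 1.6-fold. There limma recovered 73.0% of the changed genes and also called 13 unchanged genes. Alternatives were other rats, pseudocounts, filters and scalings, edgeR (4.0.16) and DESeq2 (1.42.0) on recovered reads, and leaving out each rat. The 13 rats were found among 9402 sets by matching published mean counts. Poisson intervals and the 3-read floor cover counting error only.

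The gene table at hand (assembly GRCr8) matched 0 of the identifiers, so other JAK-STAT genes and cell type markers were not analysed here, nor was the tissue checked against markers. The identifiers of Jak1 and Stat3 could not be checked against it. The named genes were the 3 members and, by identifier, the 2 genes highest and the 2 lowest in r with Jak3. Hba2, Chpf2, Serping1 and Mavs, which the study names, were added outside this rule with their values seen. The direction of each difference follows the treatment labels.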

Additional observations from a re-analysis of the deposited data

Results flagged for a closer look

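The highest and lowest rat of each group were set against Dixon's 95% limit on the gap to the nearest rat as a share of the whole range. Among 24 pairings of a group with a measure, many of which share values, 9 held such a rat, where chance gives about 1 in 20. In 7 of them it was vehicle rat G1_80, at 4.52 in log10 reads, at 0 for Jak3 and for Stat3 on both the count and the log2 scale, and for Jak1 at 206.7 normalized counts, 7.70 on the log2 scale. In the other 2 it was ENZ rat G2_62, with 119.4 normalized counts of Jak3 and 12.4 Jak3 reads per 100 Jak1 reads, and on the log2 scale its Jak3 value, 6.91, was within the limit. The gaps of rat G2_62, 0.570 and 0.569 of the range, lay just past the limit of 0.568.

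The correlation of Stat3 with each kinase was flagged as differing between the groups, by a test added after the correlations were seen. Stat3 in ENZ varied by only 5.55%, where read counting alone would give 5.44%. For Stat3 with Jak1 the Fisher z of r was 1.65 higher in ENZ than in vehicle, and for Stat3 with Jak3 the difference in z was -1.20. The p-values by permutation of the group labels were 0.00157 and 0.0314 (adjusted 0.00472 and 0.0471). They are approximate and do not measure a difference in r alone, since the groups also differed in spread. The first was lost without rat G2_125, the second when any 1 of 11 rats was left out. No explanation was tested.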

How the results depend on the processing

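The direction of the Jak3 difference was the same under each alternative run, all of which draw on the rats that chose Jak3. Over fits that each left out 1 rat its log2 fold change was 0.27 to 0.45. It moved by more than the spread between rats only with rat G1_80 added, to 0.97. Jak1 and Stat3 missed the threshold in every fit. Their signs changed over 17 rats (0.24 and 0.83), for Jak1 also by edgeR (0.0032) and DESeq2 (0.0033), and for Stat3 also over 13 rats (0.026) and with array weights (0.027). Fits without 1 rat gave -0.061 to 0.030 for Jak1 and -0.045 to 0.018 for Stat3. The count of genes past the threshold was 0 in each fit, and without 1 rat 0 to 0. The count at an unadjusted p under 0.05, 324, was 38 over 17 rats, 625 with no filter and 201 with a median of at least 50, which test more or fewer genes.

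With rat G1_80 the centred r was 0.94 for Jak1 with Jak3, 0.98 for Stat3 with Jak3 (then past the threshold) and 0.97 for Stat3 with Jak1. Over 13 rats r of Stat3 with Jak1 was 0.036. In vehicle alone r of Stat3 passed with Jak3 (0.72) and with Jak1 (-0.70, rho -0.80), and in ENZ alone the signs turned, to -0.29 (rho -0.61) and 0.66 (rho 0.50). Without 1 rat the centred r was -0.68 to -0.23 for Jak1 with Jak3, 0.080 to 0.43 for Stat3 with Jak3 and -0.44 to -0.018 for Stat3 with Jak1. The difference in z between groups for Stat3 with Jak3 missed the threshold over 13 rats (-0.98), with TMM (-1.12) and with size factors recomputed within the 16 rats (-1.14), and without 1 rat it was -1.48 to -0.91. It was 0.97 to 1.99 for Stat3 with Jak1 and -0.061 (without rat G2_152) to 0.83 for Jak1 with Jak3. Except where fewer rats or genes entered, the cause was not tested. No paired analysis was possible because the rat numbers of the 2 groups do not repeat. With 9 and 7 rats and 32 to 210 Jak3 reads per rat, a correlation had to be strong to pass.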
